A study of Mus musculus with 8 samples.

Results

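Troponins and tropomyosins are the regulatory proteins of the muscle thin filament, and 10 of their genes were described here in mouse primary myotubes. They were chosen by name: the troponin T genes Tnnt1, Tnnt2 and Tnnt3, the troponin I genes Tnni1 and Tnni2, the troponin C genes Tnnc1 and Tnnc2, and the tropomyosin genes Tpm1, Tpm2 and Tpm3. The deposited table held 35275 genes, of which 10981 averaged at least 1 FPKM (fragments per kilobase of transcript, scaled to the total of the library) over the libraries and were tested, and 9 of the 10 members were among these. Tnnc2 was the exception. The myotubes were grown from C57BL6/J myoblasts in horse serum, which drives fusion. They were then given extracellular vesicles (EVs), small membrane-bound particles, that had been isolated with a polymer-based method. The vesicles came from primary myogenic progenitor cells (MPC EVs) or, as the control, from growth medium, so that all groups received vesicles. RNA was sequenced after 12 h and 24 h. There were 8 libraries, 2 in each of 4 groups: control 12 h, MPC EV 12 h, control 24 h and MPC EV 24 h. Age and number of the donor mice are not in the labels, and neither is whether replicate libraries stand for different cultures or animals. The p-values therefore cover the spread between libraries, which may be technical.

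Troponin is a complex of a calcium-binding subunit (troponin C), an inhibitory subunit (troponin I) and a tropomyosin-binding subunit (troponin T), and it sits with tropomyosin along actin. When calcium binds troponin C, the complex lets tropomyosin move and myosin can reach actin. Fast fibres, slow fibres and the heart use different genes for each subunit, and developing or cultured myotubes often express the slow and cardiac forms beside the fast ones.

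The libraries held between 16324184 and 20187736 fragments, as recovered from the deposited values. The members that were tested had between 2526 and 52326 fragments in a library, so the counting error of a single value was at most 1.99%. The control 12 h libraries agreed less well with each other (Pearson r of 0.947 over the tested genes) than the pairs of the other groups (0.992 to 0.996). Their replicates 1 and 2 had Ttn at 11.8 and 3.66 FPKM, Neb at 30.8 and 8.93 and Trdn at 10.7 and 0.346. Acta1 went the other way, at 6843 and 7898 FPKM. Whether such differences follow transcript length was not tested. Fits without replicate 1 rest on replicate 2 alone for control 12 h. In that group replicate 2 was above replicate 1 in 9 of 9 tested members, and with MPC EVs replicate 1 was above replicate 2 in 8 of 9 at each time, Tpm3 being the exception, so the members are not independent of one another within a library. Markers of differentiated myotubes were abundant, with Acta1 (skeletal actin) between 5127 and 7898 FPKM and Myog (myogenin) between 1851 and 3290.1 FPKM. The 6 listed markers of the heart were low. They summed to 4.74 to 5.59 FPKM in control 12 h libraries and to at most 2.92 FPKM in any library of the other groups. Among them Tnni3, the cardiac troponin I, lay between 0.183 and 1.49 FPKM. Endothelial markers summed to at most 0.491 FPKM and immune markers to at most 1.79 FPKM in any library.

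The level of each transcript depended on the transcript length by which fragments had been divided. The lengths, which could be recovered exactly from the deposited values, equalled the longest annotated transcript of each tested member, and for 4 of them that transcript does not code for protein or keeps an intron. For Tnnt2, the troponin T of the heart and of embryonic muscle, the length was 3330 bases, against 1200 bases for its longest coding transcript, so its level per coding kilobase was 2.775 times the deposited value. For Tnni1 (slow troponin I) the lengths were 2153 and 1150 bases, a factor of 1.87, and for Tnni2 (fast troponin I) and Tpm3 (slow tropomyosin) the factors were 1.17 and 1.06. The factor is the same in every library, so it moves levels and shares but no fold change.

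On the scale of FPKM recomputed with the longest coding transcript, Tnnc1, the troponin C of slow fibres and the heart, stood highest in every group, with a mean of 3186 ± 409 (SD, n = 2) in control 12 h libraries. In the same libraries Tnnt2 followed at 1938 ± 155 and Tnni1 at 1699 ± 127. Then came Tnnt3 (fast troponin T) at 1210.5 ± 117 and Tpm2 (beta-tropomyosin) at 1121 ± 129, whose libraries overlapped. Below these lay Tpm1 (alpha-tropomyosin, the fast form in skeletal muscle) at 744 ± 65.9 and Tnnt1 (slow troponin T) at 340.1 ± 24.5. Tnni2 at 229 ± 31.5 and Tpm3 at 102 ± 6.72 were the lowest of the 9. By 24 h in control libraries Tnnt2 stood at 840.0 ± 5.84, below Tnni1 at 973 ± 42.1, Tnnt3 at 964 ± 1.76 and Tpm2 at 895 ± 18.7. This order depends on the length used. On the deposited scale Tnnt2, at 698 FPKM, was below Tnni1 (908), Tnnt3 (1210.5), Tpm2 (1121) and Tpm1 (744) already in control 12 h. Slow and fast genes of troponin T and of troponin I were expressed side by side in all 8 libraries.

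**Figure D1:**
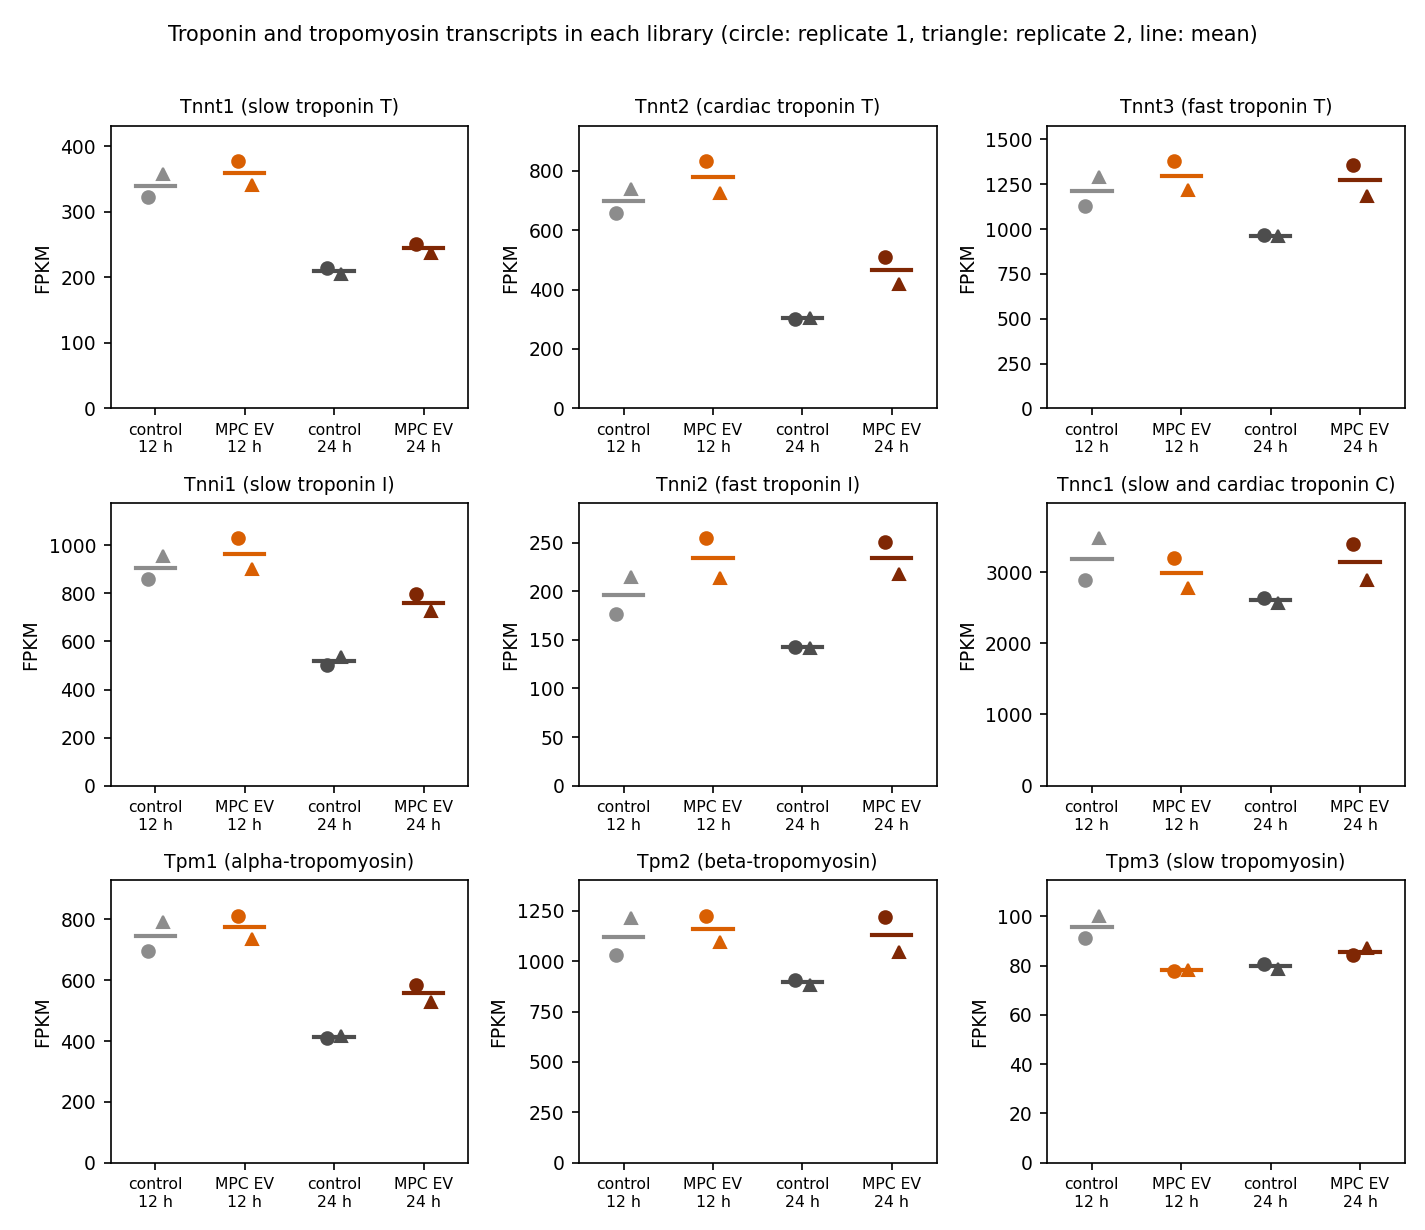
Deposited FPKM (vertical axis, linear from 0, scaled per gene) of the 9 tested members in the 4 groups, with replicate 1 as a circle, replicate 2 as a triangle and the group mean as a line. In control libraries every member lies lower at 24 h than at 12 h, and at 24 h both MPC EV libraries lie above both control libraries in all 9 panels.

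Tnnc2, the fast troponin C, could not be read. At 12 h it received 0 and 1 fragments with control vesicles and 1 and 0 with MPC EVs. At 24 h it received 0 and 0 with control vesicles and 0 and 2 with MPC EVs. All values were below the 3 fragments (0.212 to 0.263 FPKM, depending on the library) that a count of 0 allows at this depth, counting error only. Of its 800 exonic bases on chromosome 2 (164777161 to 164779967, minus strand, GRCm38), 592 (74%) overlap exons of Ube2c, a gene of dividing cells on the other strand. The library preparation did not keep strand, and Ube2c was listed at 3.88 to 12.6 FPKM. Whether fragments from Tnnc2 were set aside or given to Ube2c was not tested, so these values give no level of Tnnc2. None of the other 9 members shares an exonic base with another gene in GENCODE vM21.

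After 24 h, 2 of the 9 tested members passed the test for a difference between MPC EV and control myotubes, and both were the troponin I genes. Tnni2 and Tnni1 were higher with MPC EVs, by 1.64-fold and 1.46-fold on the scale of log2(FPKM + 0.5). Over all tested genes 3.57% were called in this comparison, 2.61% as higher and 0.956% as lower, at a Benjamini-Hochberg adjusted p below 0.05 in limma. Bulk RNA cannot tell more RNA per cell from more cells of a type, here and below.

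Tnni2 encodes the fast inhibitory subunit (chromosome 7, 142441808 to 142444410, plus strand). It was at 143 and 142 FPKM in the control 24 h libraries and at 251 and 218 FPKM with MPC EVs. The groups did not overlap, and the lower MPC EV library stood well above both controls. The log2 difference was 0.71 ± 0.13 (SE), with an adjusted p of 0.0429 in limma. Tnni1, the slow inhibitory subunit (chromosome 1, 135779434 to 135810989, plus strand), was at 504 and 536 FPKM in control and at 796 and 725 FPKM with MPC EVs. Again both libraries with MPC EVs were the higher ones. The log2 difference was 0.55 ± 0.10 (SE), with an adjusted p of 0.0394 in limma. Both calls were lost when any 1 of the 4 libraries of this time, or of the MPC EV 12 h libraries, was left out (adjusted p of up to 0.286 for Tnni1 and 0.289 for Tnni2), while the log2 differences stayed between 0.48 and 0.62 for Tnni1 and between 0.61 and 0.82 for Tnni2.

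Among the troponin T genes none passed at 24 h. Tnnt2 (chromosome 1, 135836354 to 135852260, plus strand) was at 301 and 304 FPKM in control and at 511 and 419 FPKM with MPC EVs, a log2 difference of 0.61 ± 0.12 (SE) with an adjusted p of 0.0505 in limma, just outside the threshold. Tnnt3, the fast form (chromosome 7, 142498836 to 142516009, plus strand), was at 965 and 963 FPKM in control and at 1359.8 and 1183 FPKM with MPC EVs. Its log2 difference was 0.40 (adjusted p of 0.139, limma). Tnnt1, the slow form (chromosome 7, 4504570 to 4516382, minus strand), was at 214 and 205 FPKM in control and at 251 and 238 FPKM with MPC EVs, and its log2 difference was 0.22 (adjusted p of 0.260, limma). In each of the 3 genes the MPC EV libraries were the higher ones without overlap.

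Tnnc1 (chromosome 14, 31208312 to 31211729, plus strand) was at 2643 and 2571 FPKM in control 24 h and at 3403 and 2894 FPKM with MPC EVs. The spread between the latter 2 libraries was almost as wide as the step between the groups, and the log2 difference of 0.27 had an adjusted p of 0.463 (limma). The tropomyosins, which lie end to end along the filament and are moved by troponin, did not pass either. Tpm1 (chromosome 9, 67022590 to 67049406, minus strand) was at 411 and 417 FPKM in control and at 584 and 528 FPKM with MPC EVs, a log2 difference of 0.42 (adjusted p of 0.0716, limma). Tpm2 (chromosome 4, 43514711 to 43523765, minus strand) was at 909 and 882 FPKM and at 1217 and 1045 FPKM, a log2 difference of 0.33 (adjusted p of 0.245, limma). Tpm3 (chromosome 3, 90072649 to 90100902, plus strand) was at 80.6 and 78.7 FPKM and at 84.3 and 87.1 FPKM, and its log2 difference of 0.10 was the smallest of the 9 (adjusted p of 0.582, limma). In 9 of 9 tested members both MPC EV libraries lay above both control libraries, against 23.7% of all tested genes, while 30.2% had the opposite order and none of the members did. The median log2 difference of the 9 was 0.40, against -0.03 over all tested genes.

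At 12 h 1 member passed: Tpm3 was lower with MPC EVs, and no member was higher. Over all tested genes 18.6% were called in this comparison, 14.3% as lower and 4.36% as higher, so a single lower member is near the background. Tpm3, which besides the slow muscle form also gives rise to tropomyosins of the cytoskeleton of other cells, was at 91.4 and 100.3 FPKM in control and at 77.8 and 78.4 FPKM with MPC EVs. The groups did not overlap, which held in this direction for 45% of all tested genes. Its log2 difference was -0.29 ± 0.06 (SE), with an adjusted p of 0.0289 in limma. All tested genes had a median of -0.12 at this time, and once libraries were scaled to a common median ratio the difference of Tpm3 was -0.15 with an adjusted p of 0.1 (limma). The same scaling turned the split of all calls from 479 higher and 1566 lower to 736 higher and 548 lower.

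The other 8 members overlapped between the groups at 12 h, whereas 17.1% of all tested genes had both MPC EV libraries above both controls. Tnni2 was at 177 and 215 FPKM in control and at 255 and 214 FPKM with MPC EVs, a log2 difference of 0.26 (adjusted p of 0.194, limma). Tnnt2 was at 659 and 738 FPKM and at 832 and 725 FPKM, a log2 difference of 0.16 (adjusted p of 0.353, limma). For both genes the lower MPC EV library lay below the higher control library. Tnnt3, Tnni1, Tnnt1, Tpm1 and Tpm2 had log2 differences between 0.05 and 0.10, and Tnnc1 had -0.09, each within about 1 standard error of 0. These small values depended on the scaling. With the correction for GC content and length Tnni2 was higher by 0.62 (adjusted p of 0.012, limma), Tnnt1 by 0.37 (adjusted p of 0.034) and Tnnt3 by 0.37 (adjusted p of 0.0322). With quantile normalization Tnni1, Tnni2, Tnnt1, Tnnt2 and Tpm1 passed as higher, by 0.22 to 0.42. The differences are shown with their errors in the plot of MPC EV against control. Leaving out a control 12 h library kept the call of Tpm3, with a log2 difference of -0.36 (adjusted p of 0.00174, limma) without replicate 1 and -0.22 (adjusted p of 0.0383) without replicate 2, and leaving out any of the other 6 libraries lost it (adjusted p of up to 0.12).

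**Figure D2:**
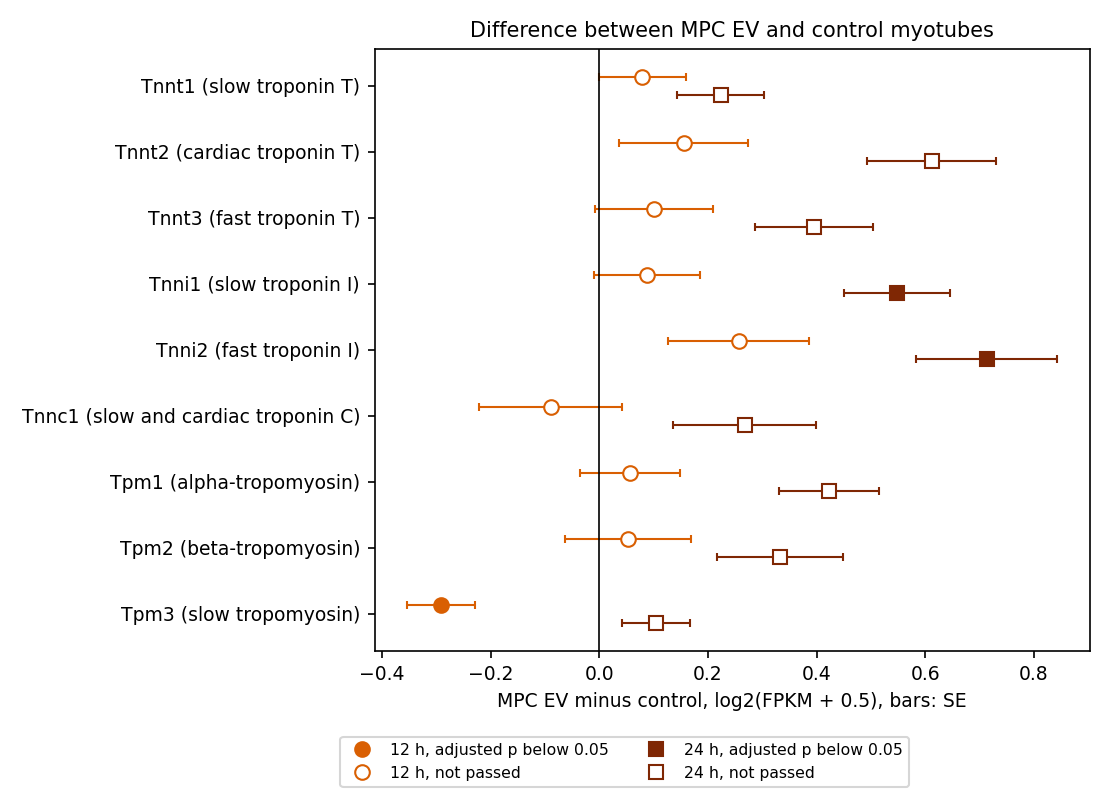
Difference between MPC EV and control libraries on the scale of log2(FPKM + 0.5) (horizontal axis) for each tested member at 12 h (circles) and 24 h (squares), with the standard error of the limma fit as bars and filled symbols where the adjusted p was below 0.05. At 24 h the 9 squares lie to the right of 0, between 0.10 and 0.71, and at 12 h Tpm3 alone is filled, at -0.29.

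The difference between MPC EV and control was larger at 24 h than at 12 h in value for 9 of 9 members, but the test of that difference passed for none of them. It also passed for 0 of the 10981 tested genes in limma and for 0 with voom on recovered fragment numbers, although 2014 and 2016 genes, respectively, had an unadjusted p below 0.05. Of the members, 5 had such a p. They were Tpm3 (log2 difference of the effects 0.40, adjusted p of 0.146), Tnni1 (0.46, adjusted p of 0.185), Tpm1 (0.37, adjusted p of 0.225), Tnnt2 (0.46, adjusted p of 0.232) and Tnni2 (0.46, adjusted p of 0.263), all from limma. Over all tested genes the median of this quantity was 0.11, so most of them were above 0 as well. Under median-ratio scaling that median was 0.00083. Among all tested genes the members stood between percentile 55.3 (Tnnt1) and percentile 91.2 (Tnni1). Without control 12 h replicate 1 all 5 passed, as did 1960 genes as higher and 1708 as lower of the 10981 tested. Leaving out any other library gave no member. A call at 1 time and not at the other is therefore not shown to be a difference between the times.

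Between 12 h and 24 h 5 of the 9 tested members fell in control myotubes and none rose: Tnnt2, Tpm1, Tnni1, Tnnt1 and Tpm3. Over all tested genes 17.8% were called, 10.3% as lower and 7.54% as higher. The control 24 h libraries entered both this comparison and the one with MPC EVs at 24 h, so the low control values are shared by both. In 9 of 9 members both control 24 h libraries lay below both control 12 h libraries, against 30.9% of all tested genes, and 27.8% had the opposite order. The median log2 difference of the members was -0.45, against 0.01 over all tested genes.

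Tnnt2, the cardiac and embryonic troponin T, had the largest difference, from 659 and 738 FPKM at 12 h to 301 and 304 FPKM at 24 h. It was lower by 1.20 ± 0.12 (SE) on the log2 scale, to 0.434 of its 12 h level, with an adjusted p of 0.00186 in limma. Tpm1 went from 697 and 790.1 FPKM to 411 and 417 FPKM (log2 difference of -0.84 ± 0.09, adjusted p of 0.00251, limma). The slow forms of troponin I and troponin T fell as well. Tnni1 went from 859.7 and 955 FPKM to 504 and 536 FPKM (log2 difference of -0.80 ± 0.10, adjusted p of 0.00356, limma). Tnnt1 went from 323 and 357 FPKM to 214 and 205 FPKM (log2 difference of -0.70 ± 0.08, adjusted p of 0.00297, limma). The 2 times did not overlap in any of these 4 genes, and the 4 calls were kept in all 13 other settings and in all 8 fits that left out a library. Tpm3 fell by 0.26 on the log2 scale (adjusted p of 0.0341, limma), and this call was kept in 9 of 13 settings and in 2 of the 8 leave-outs.

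The fast genes Tnnt3 and Tnni2, together with Tpm2 and Tnnc1, did not pass. Tnni2 was at 177 and 215 FPKM at 12 h and at 143 and 142 FPKM at 24 h, a log2 difference of -0.45 (adjusted p of 0.0604, limma). Tnnt3 was at 1128 and 1293 FPKM and then at 965 and 963 FPKM, a log2 difference of -0.32 (adjusted p of 0.0899). These steps are less than those of the 4 genes above relative to the spread of the 12 h libraries. Tpm2 was at 1029 and 1212 FPKM and then at 909 and 882 FPKM, a log2 difference of -0.32 (adjusted p of 0.110), and Tnnc1 at 2897 and 3476 FPKM and then at 2643 and 2571 FPKM, a log2 difference of -0.28 (adjusted p of 0.189). Without control 12 h replicate 1, all 9 members passed as lower, in a fit that called 2024 genes lower and 2495 higher over the whole table, and without replicate 2 the same number passed as with it, 5.

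Other markers also differed between these libraries, where 10.3% of all tested genes were called lower at 24 h and 7.54% higher. Of 8 myotube markers 7 were lower at 24 h in control, and their summed level went from 11855 to 13584 FPKM at 12 h to 8588 to 8905 FPKM at 24 h. Actn2 and Mymx, needed for the Z-disc and for fusion, were among those that fell, by 1.83 and 1.37 on the log2 scale. Of 4 tested markers of dividing cells 2 were higher, Ccnb1 and Cdk1, and the list summed to 15.9 to 27.3 FPKM at 12 h and to 41.0 to 42.4 FPKM at 24 h. Of 4 tested smooth muscle markers 3 were lower, among them Acta2, a smooth muscle actin that cultured myogenic cells also express, while the defining markers Myh11 and Cnn1 stayed at or below 0.176 and 0.17 FPKM. Their part in the fall of the troponins and tropomyosins was not tested.

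With MPC EVs 3 members were lower at 24 h than at 12 h and none was higher, against 5.4% lower and 12.9% higher, together 18.3%, of all tested genes. They were Tnnt1, Tnnt2 and Tpm1. Tnnt2 went from 832 and 725 FPKM to 511 and 419 FPKM (log2 difference of -0.75 ± 0.12, adjusted p of 0.0106, limma). Tnnt1 went from 377 and 341 FPKM to 251 and 238 FPKM (log2 difference of -0.55 ± 0.08, adjusted p of 0.00815). Tpm1 went from 812 and 734 FPKM to 584 and 528 FPKM (log2 difference of -0.47 ± 0.09, adjusted p of 0.0194). In 4 of 9 tested members, these 3 and Tnni1, both 24 h libraries lay below both 12 h libraries, against 23.6% of all tested genes. Tnni1, at 1029 and 901 FPKM and then at 796 and 725 FPKM, did not pass (log2 difference of -0.34, adjusted p of 0.0574). Tnnt3, Tnni2, Tnnc1 and Tpm2 had log2 differences between -0.04 and 0.07 and overlapped between the times. Tpm3 was the single member with both 24 h libraries above both 12 h libraries, an order that 47.1% of all tested genes had, with a log2 difference of 0.13 (adjusted p of 0.192). Without MPC EV 12 h replicate 1 or MPC EV 24 h replicate 2 no member passed, and without MPC EV 24 h replicate 1 a single one did. Over all tested genes the split of calls moved from 1420 higher and 593 lower to 816 higher and 839 lower under median-ratio scaling.

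**Figure D3:**
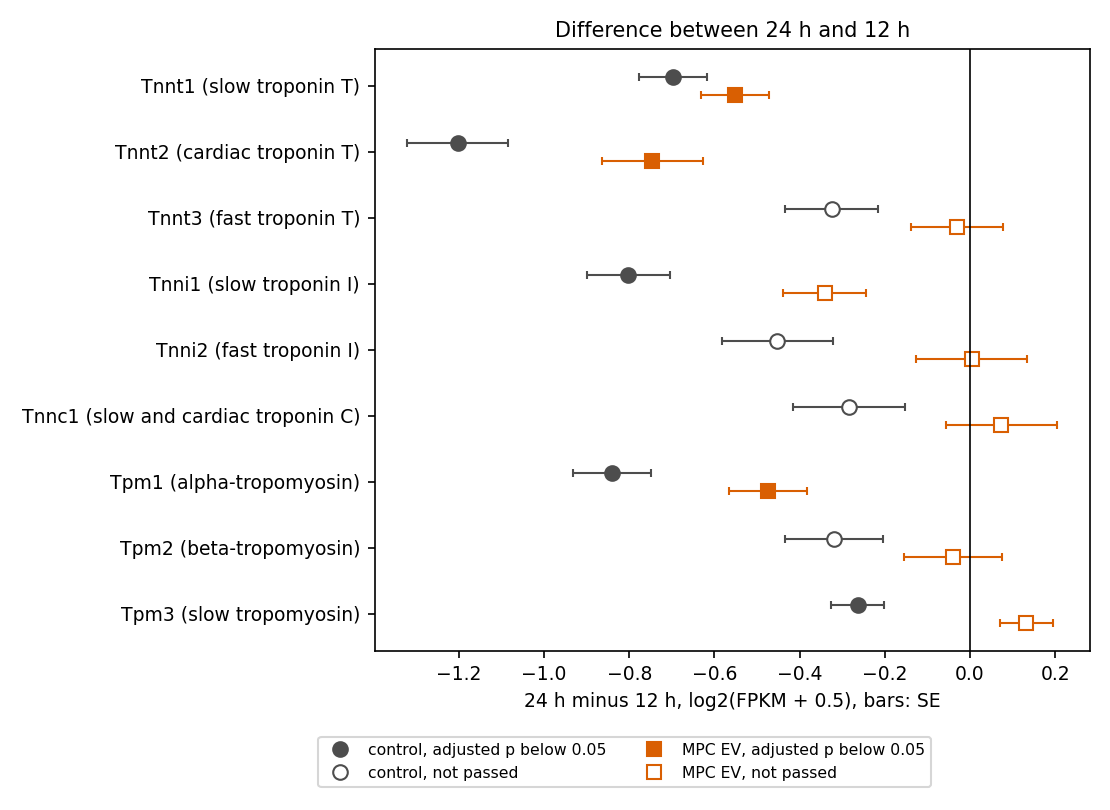
Difference between 24 h and 12 h on the scale of log2(FPKM + 0.5) (horizontal axis) in control (circles) and MPC EV libraries (squares) for each tested member, with the standard error of the limma fit as bars and filled symbols where the adjusted p was below 0.05. Tnnt2, Tpm1 and Tnnt1 are filled and left of 0 in both conditions, and Tnni1 and Tpm3 in control alone.

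The sequence before the start of transcription was available from RefSeq (build GRCm38.p6) for 8 of the 10 members; Tnnt3 and Tnni2 had no entry. Tnnt2, Tnni1 and Tnnt1 are shown because they fell together in control myotubes, and Tnnc1 because it is the highest member and did not pass. Each is read 5′ to 3′ on the strand of its gene and ends before the first base that GENCODE vM21 annotates as an exon or, at the latest, before the RefSeq start. Capitals mark the E-box CANNTG, the motif of myogenic factors such as MyoD and myogenin, and the MCAT core CATTCC, the motif of TEAD factors, searched on both strands. The regions are chr1:135836084-135836333 (plus strand) for Tnnt2, chr1:135799171-135799401 (plus strand) for Tnni1, chr7:4516005-4516225 (minus strand) for Tnnt1 and chr14:31208062-31208311 (plus strand) for Tnnc1.
Tnnt2: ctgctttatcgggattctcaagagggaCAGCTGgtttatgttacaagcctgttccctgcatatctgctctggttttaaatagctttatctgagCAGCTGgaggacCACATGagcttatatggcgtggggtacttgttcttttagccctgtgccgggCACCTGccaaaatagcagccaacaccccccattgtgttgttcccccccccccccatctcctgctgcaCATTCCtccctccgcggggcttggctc
Tnni1: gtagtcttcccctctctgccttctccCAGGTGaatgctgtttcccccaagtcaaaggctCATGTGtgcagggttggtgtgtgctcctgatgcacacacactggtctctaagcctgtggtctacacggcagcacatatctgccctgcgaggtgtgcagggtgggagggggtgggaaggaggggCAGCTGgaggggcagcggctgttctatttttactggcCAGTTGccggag
Tnnt1: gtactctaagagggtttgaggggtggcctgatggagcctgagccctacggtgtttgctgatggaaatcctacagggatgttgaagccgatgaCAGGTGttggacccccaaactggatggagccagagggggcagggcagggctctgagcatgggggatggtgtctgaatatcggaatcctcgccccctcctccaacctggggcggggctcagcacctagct
Tnnc1: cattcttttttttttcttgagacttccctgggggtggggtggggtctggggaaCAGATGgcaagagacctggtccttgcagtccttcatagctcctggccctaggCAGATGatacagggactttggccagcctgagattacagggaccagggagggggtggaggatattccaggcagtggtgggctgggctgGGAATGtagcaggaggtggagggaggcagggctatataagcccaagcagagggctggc
Within 250 bases before the start, Tnnt2 and Tnni1 each had 4 E-boxes, Tnnc1 had 2 and Tnnt1 had 1. The 4 of Tnnt2 began 223, 157, 145 and 94 bases before the start and those of Tnni1 at 224, 191, 68 and 31. An MCAT core lay 27 bases before the start of Tnnt2, 58 before that of Tnnc1 and 56 before that of Tpm1, which also had 1 E-box. All 8 members with an entry had at least 1 E-box, as did 66.2% of 32851 RefSeq promoters of this length, and 3 of 8 had an MCAT core, against 12.6%. These counts use all 250 bases, also those past the start of an exon in GENCODE vM21. Such an exon begins after 17 bases in the window of Tnnc2 and after 57 in that of Tpm1. Both E-boxes of Tnnc2 and the MCAT core of Tpm1 lie past that point. No overlap between an E-box and an MCAT core occurred in the sequences shown. The CArG box, found in 1.47% of the promoters, and the MEF2 box, found in 2.92%, matched none of the 8, which says only that these letters are not in these windows. Motif matches describe the sequence and were not tested against the changes in level.

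Shares within a subunit family do not depend on a single scaling factor of a library, because both genes come from the same one. A correction that differs between genes does move them. With that for GC content and length, the time difference in control was -0.80 for Tnni1 and -0.21 for Tnni2, against -0.80 and -0.45 without it. Per coding kilobase, Tnnt2 made up 55.6% ± 0.28 (SD, n = 2) of troponin T transcripts in control 12 h libraries and 41.7% ± 0.34 in control 24 h, while Tnnt3 went from 34.7% ± 0.40 to 47.9% ± 0.03. With MPC EVs Tnnt2 went from 56.6% ± 0.33 to 45.9% ± 1.26 and Tnnt3 from 34.0% ± 0.13 to 45.3% ± 0.62, so that both genes overlapped in the MPC EV 24 h libraries. On the deposited scale Tnnt2 was 31.1% and 20.5% in control and Tnnt3 the larger part throughout, 53.8% and 65.3%, so which gene leads at 12 h depends on the length used. Tnnt1, the slow form, stayed between 8.75% and 10.4% of the group means per coding kilobase. Tnni1 was most of troponin I in every library: 88.2% ± 0.67 in control 12 h, 86.9% ± 0.34 in MPC EV 12 h, 85.4% ± 0.63 in control 24 h and 83.9% ± 0.48 in MPC EV 24 h, the rest being Tnni2. Among the 3 tropomyosin genes, Tpm1 went from 37.8% ± 0.53 to 29.7% ± 0.65 and Tpm2 from 57.0% ± 0.72 to 64.2% ± 0.62 in control, with Tpm3 at 5.19% and 6.08%.

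**Figure D4:**
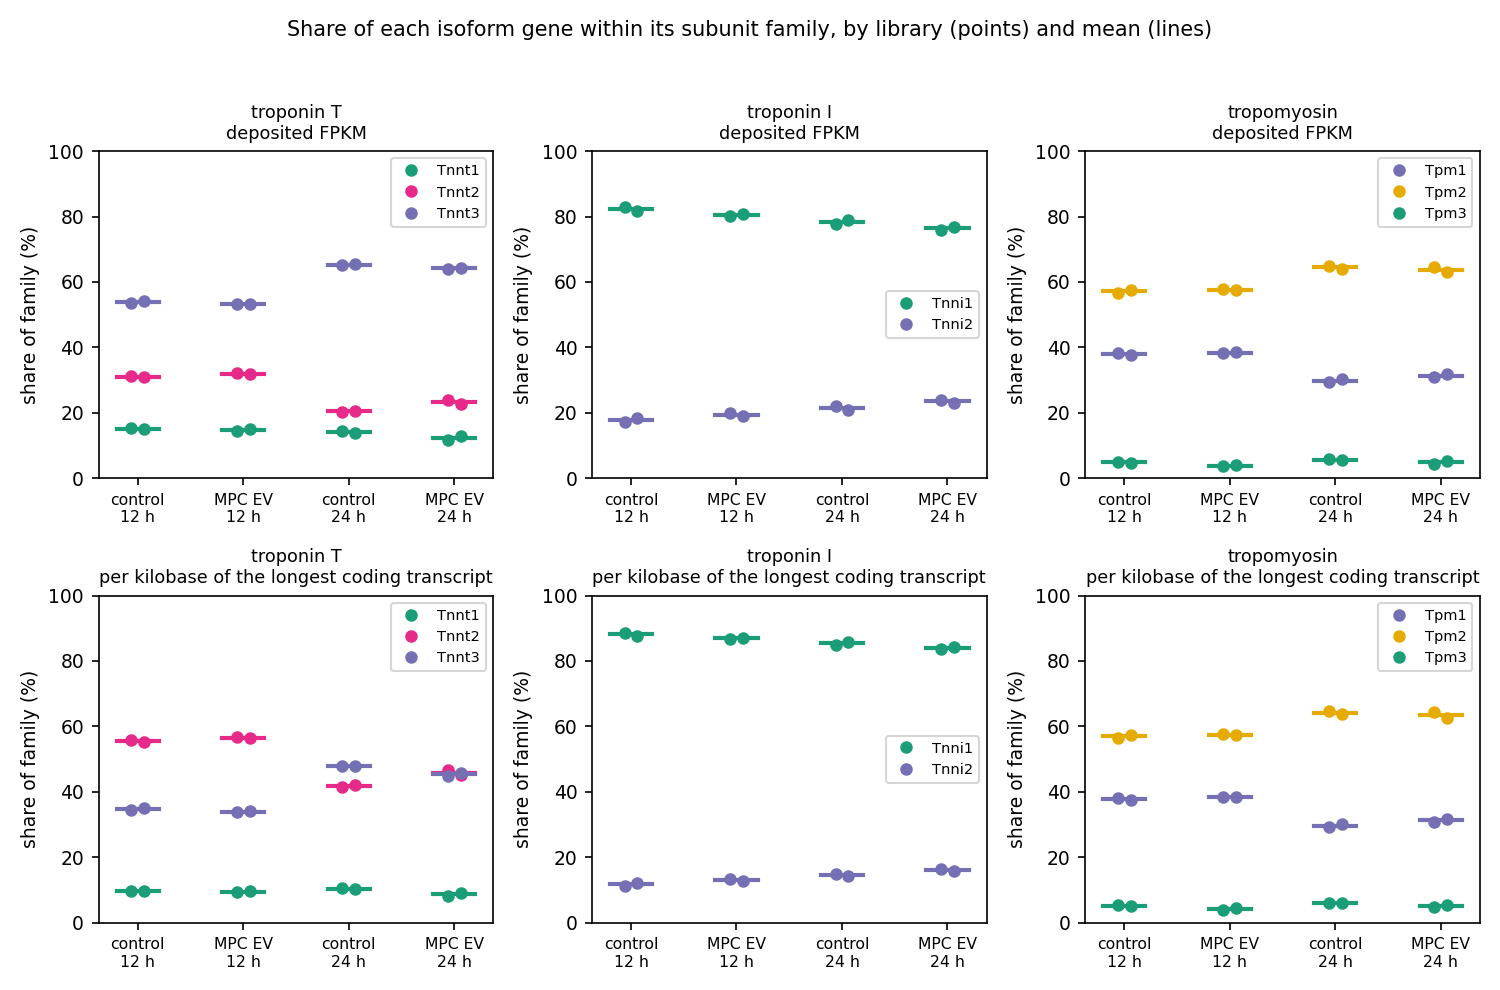
Share (vertical axis, percent) of each gene within troponin T (Tnnt1, Tnnt2, Tnnt3), troponin I (Tnni1, Tnni2) and the 3 tropomyosin genes, per library (points) with group means (lines), on the deposited FPKM scale (top) and per kilobase of the longest coding transcript (bottom). The share of Tnnt2 is lower at 24 h on both scales, and at 12 h it is the larger share of troponin T on the lower scale alone.

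The ratio of 2 genes of a family within a library, slow to fast, cardiac to fast (Tnnt2 to Tnnt3) or alpha to beta (Tpm1 to Tpm2), was compared with exact permutation tests, 2-sided, in which labels were exchanged within each time or each treatment. With 36 arrangements the smallest p possible is 0.0556, so none can pass 0.05, and 8 tests were made, of 4 ratios for treatment and for time. At 12 h the log2 ratio of Tnni1 to Tnni2 was 2.28 and 2.15 with control vesicles, against 2.02 and 2.08 with MPC EVs. At 24 h it was 1.82 and 1.92 with control vesicles, against 1.66 and 1.74 with MPC EVs. The mean difference, MPC EV minus control, was -0.17 (exact p = 0.0556, adjusted 0.0741), with -0.17 at 12 h and -0.17 at 24 h. Both MPC EV libraries lay below both control libraries at each time. The log2 ratio of Tnnt1 to Tnnt3 differed by -0.10 (exact p = 0.111, adjusted 0.127), by -0.02 at 12 h and -0.17 at 24 h. That of Tnnt2 to Tnnt3 differed by 0.14 (exact p = 0.0556, adjusted 0.0741) and that of Tpm1 to Tpm2 by 0.05 (exact p = 0.222, adjusted 0.222).

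All 4 ratios had lower values at 24 h than at 12 h, with a larger part for Tnnt3, Tnni2 or Tpm2. The log2 ratio of Tnnt2 to Tnnt3 differed by -0.80, that of Tpm1 to Tpm2 by -0.48, that of Tnnt1 to Tnnt3 by -0.45 and that of Tnni1 to Tnni2 by -0.35. Each had the smallest exact p the design allows, 0.0556 (adjusted 0.0741). Every 24 h library lay below every 12 h library of its treatment in each of the 4 ratios.

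Pairs of members that varied together over the 8 libraries were found both within and across fibre types. On log2(FPKM + 0.5), the fast genes Tnnt3 and Tnni2 had a Pearson r of 0.980 and the slow genes Tnnt1 and Tnni1 one of 0.936. Across types, the Pearson r of Tnnt2 with Tpm1 was 0.997, and that of Tnnt3 with Tpm2 was 0.988. The slow genes Tnni1 and Tnnt1 had r of 0.984 and 0.981 with Tpm1. Tpm3 had r of at most 0.544 with any other member. Among 5552 other genes that averaged 10 FPKM or more, the mean of the slow troponins Tnnt1, Tnni1 and Tnnc1 was most like Myl4 (an embryonic and atrial myosin light chain, r of 0.989), Cd151, Mad1l1, Akt1 and Hras. Tnnt2 was most like Aamdc (r of 0.996), Ckb, Cd9, Mpi and Ldha. These r are descriptions over 4 groups of 2 libraries that share treatment, time and depth.

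Other genes of the thin filament gave more calls than the members at 12 h. Over all tested genes 4.36% were called higher with MPC EVs at 12 h and 2.61% at 24 h. Of 14 tested genes on that list, 10 were called higher with MPC EVs at 12 h and 5 at 24 h, and none was called lower. The median log2 differences were 0.47 and 0.45, against -0.12 and -0.03 over all tested genes. A fit to the 12 h libraries alone called 2 of all 10981 tested genes higher, and one to the 24 h libraries alone called 491. The 12 h calls of this list and of those below therefore rest largely on the joint fit of 8 libraries. Actc1, the cardiac actin of embryonic muscle, was higher by 0.88 ± 0.12 (SE) at 12 h and by 1.13 ± 0.12 at 24 h (adjusted p of 0.00948 and 0.00906, limma). Klhl41, a stabiliser of thin filament proteins, was higher by 0.44 and 0.70, and Lmod2, which nucleates actin at the pointed end, by 0.49 and 0.43. Xirp1 was higher by 0.82 at 12 h. Acta1, the main skeletal actin, differed by 0.45 at 24 h (adjusted p of 0.0983).

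The thick filament and membrane genes that define fibre types were compared in the same way. The shares of all tested genes called higher, 4.36% at 12 h and 2.61% at 24 h, apply to each of these lists. Of 8 tested slow fibre genes, 4 were called higher at 12 h and 5 at 24 h, and none was called lower. Myh7, the slow myosin heavy chain, was higher by 1.62 ± 0.12 and 1.95 ± 0.12 on the log2 scale, and Csrp3, a Z-disc protein, by 1.28 and 1.07. The slow light chains Myl2 and Myl3, both low, lay the other way at 12 h without passing. Myl2 was at 2.70 and 2.72 FPKM in control and at 1.17 and 1.66 FPKM with MPC EVs. Myl3 was at 3.40 and 4.11 FPKM in control and at 1.04 and 1.50 FPKM with MPC EVs. At 24 h both overlapped between the groups. Of 6 tested fast fibre genes, 2 were called higher at 12 h and 1 at 24 h with none called lower, and the fast heavy chain Myh1 was higher by 1.10 ± 0.15 and 1.07 ± 0.15. Of 6 developmental genes, 3 were higher at each time, Myh3 by 1.50 and 1.88, Myh8 by 1.42 and 2.03, and Actc1. These myosins differed more in value than any troponin or tropomyosin, which was not tested as a difference. Of 14 genes of calcium release and uptake, the step before troponin, 4 were higher at 12 h and 3 at 24 h, led by Srl (0.81 and 0.89).

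Markers of other cells were read beside these counts. Over all tested genes, 4.36% were called higher and 14.3% lower with MPC EVs at 12 h, and 2.61% and 0.956% at 24 h. Of the 8 myotube markers, 2 were higher and 1 lower with MPC EVs at each time. Actn2 was higher by 2.71 at 24 h and Mymx, the fusion peptide myomixer, was lower by 1.17 and 1.12 at the 2 times. Of 7 tested progenitor markers, 2 were higher and 1 lower at 12 h and 2 were higher at 24 h, and the list summed to 130.04 to 136 FPKM in control 12 h, 144 to 162 in MPC EV 12 h, 86.0 to 93.0 in control 24 h and 116 to 123 in MPC EV 24 h. Of 3 tested fibroblast markers, 2 were lower with MPC EVs at 12 h and 1 at 24 h, with the list between 26.5 and 51.0 FPKM and Lum and Dcn at or below 0.0263 and 0.34 FPKM. Of 4 markers of dividing cells, 2 were lower at 12 h and none passed at 24 h, and of 4 smooth muscle markers, 1 was higher and 1 lower at 12 h and none passed at 24 h. The part of other cells in the differences of the troponins and tropomyosins was not tested.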

How the data were processed

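RNA-seq of 8 libraries of mouse primary myotubes was analysed from a single table. Per the labels' protocols, libraries were not strand-specific and were sequenced as paired ends. HISAT2, DESeq2 and the build mm10 are named in the submitters' processing notes without a role. Which tool counted fragments, and on which annotation, is not given in the sources used here. The deposited values are FPKM, and no scaling between libraries is stated. No column lacked a sample.

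Symbols and GRCm38 coordinates came from GENCODE vM21, which named 34490 of 35275 genes. Library totals and transcript lengths were solved from the FPKM values: for 10981 of 10981 tested genes a length was found that made all 8 values whole fragments, within a tolerance of 0.001. Genes averaging 1 FPKM or more were tested in limma 3.58.1 (R 4.3.3) on the log2 of FPKM plus a pseudocount of 0.5 (4 groups in 1 fit, 4 residual degrees of freedom, variance trend), 2-sided, with Benjamini-Hochberg adjustment over all tested genes at 0.05. Fold changes on this scale understate the change of low genes. The steps were tested on simulated data. Of genes given a log2 change of 0.5, the fit called 38.8% for MPC EV against control at 12 h and 29.9% at 24 h. For the difference of the effects it called 16.4%. A member that did not pass may therefore still differ by such an amount. The 12 h and 24 h comparisons were simulated with the same spread per gene and 67 such genes each. The gap between their shares therefore says nothing about the times. Each simulation changed 200 of 10981 genes, drawn at any tested level, so the shares are not those of the members.

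The members and gene lists were chosen with earlier results of these data known. Of each list, up to 4 genes with the smallest adjusted p per comparison could be named, and of each profile the 5 genes with the highest r among those averaging at least 10 FPKM. The marker genes Acta1, Myog, Myh11, Cnn1, Lum, Dcn and Tnni3 were named for their levels. Ttn, Neb and Trdn were named after seeing the data, for their spread between the control 12 h libraries. So were Myl2 and Myl3, for lying against the other slow fibre genes at 12 h. The muscle transcription factors are not reported here, nor is the profile of the fast troponins, which rests in part on Tnnc2. Alternatives were other pseudocounts, filters and scalings, a correction for GC content and length, a replicate block, leaving out each library, and fits to 1 time. Added after seeing the data were voom on the recovered fragments, lengths of coding transcripts, and crossed replicate numbers.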

Additional observations from a re-analysis of the deposited data

How the results depend on the processing

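The number of members called per comparison depended on the processing. Without a filter on low values, 0 members passed between MPC EV and control at 24 h (2 in the report). In that fit 167 of 21406 genes were called higher and 58 lower. Median-ratio scaling gave 0 at 12 h (1 in the report), with 736 of all tested genes called higher and 548 lower. Quantile normalization gave 6 at 12 h (5 higher and 1 lower), 6 at 24 h and 8 between the times in control (5 in the report). Of all tested genes it called 506 higher and 747 lower at 12 h, 261 and 93 at 24 h, and 770 and 1102 in control. The correction for GC content and length gave 3 at 12 h, all higher, with 444 of all tested genes called higher and 702 lower. Without a variance trend the counts were 0 at 12 h and 0 at 24 h. That fit called 444 of all tested genes higher and 1316 lower at 12 h, and 272 and 103 at 24 h. Fits to the libraries of 1 time gave 0 at 12 h and 5 at 24 h. They called 2 of all tested genes higher and 9 lower at 12 h, and 491 and 272 at 24 h. The member counts therefore moved together with those of the whole table. With voom, added after seeing the data, all 5 counts of members were as reported, and its calls among all genes numbered 507 (higher) and 1480 (lower) for 12 h, 270 and 92 for 24 h. When each library was left out in turn, the counts ranged from 0 to 1 at 12 h, from 0 to 5 at 24 h, from 0 to 5 for the difference of the effects, from 4 to 9 between the times in control and from 0 to 4 with MPC EVs. A group left with 1 library is assumed to vary like the others.

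Nothing in the labels ties same-numbered libraries together: their deviations from the group means correlated at -0.0125 between the groups of 12 h and at 0.241 between those of 24 h, those of control 12 h at -0.271 with control 24 h and at -0.613 with MPC EV 24 h, and those of MPC EV 12 h at 0.0719 with MPC EV 24 h and at 0.0581 with control 24 h, and with 2 pairs this cannot be settled. With a replicate block 0 members passed at 12 h, 0 at 24 h, 4 between the times in control and 3 with MPC EVs. In the same order, that block called 291, 133, 612 and 931 of all tested genes higher and 823, 50, 872 and 460 lower. With a replicate block within each time 0, 0, 4 and 0 members passed. This block called 103, 0, 443 and 578 of all tested genes higher and 220, 0, 673 and 326 lower. No member could therefore pass in it at 24 h. For the ratios of Tnni1 to Tnni2 and of Tnnt1 to Tnnt3, the replicate block left the differences at -0.17 and -0.10 (exact p = 0.125 and 0.25, sign flips of 4 pairs). The smallest p that 4 pairs allow is 0.125, so neither could pass. With the control 12 h numbers crossed in the replicate block, chosen after seeing the data, 5 members passed at 24 h and 9 between the times in control. Of all tested genes this called 238 higher and 73 lower at 24 h, and 774 and 1111 between the times in control.

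Signs turned only for log2 differences that had not passed. Under median-ratio scaling these were Tnnc1 at 12 h (0.048) and, between the times with MPC EVs, Tnni2 (-0.10) and Tnnc1 (-0.034). Quantile normalization turned Tnni2 between the times with MPC EVs (-0.11). The GC and length correction turned Tnnc1 at 12 h (0.26), Tnni2 (-0.17) and Tnnc1 (-0.10) between the times with MPC EVs, and the differences of the effects of Tnnt1 (-0.19), Tnnt3 (-0.0023) and Tnnc1 (-0.030). Leaving out a library spread the difference at 12 h from -0.0088 to 0.18 for Tnni1, -0.033 to 0.15 for Tpm1, -0.065 to 0.17 for Tpm2 and -0.22 to 0.042 for Tnnc1. It spread the time difference with MPC EVs from -0.13 to 0.071 for Tnnt3, -0.12 to 0.13 for Tnni2, -0.043 to 0.19 for Tnnc1 and -0.15 to 0.071 for Tpm2. The difference in the ratio of Tnnt1 to Tnnt3 stayed between -0.13 and -0.07 and that of Tnni1 to Tnni2 between -0.20 and -0.14 when a library was left out. The GC and length correction moved the latter more. At 12 h it gave differences of 0.12 for Tnni1 and 0.62 for Tnni2, against 0.09 and 0.26 without it. The cause of these changes was not tested. The ratio of Tnnc1 to Tnnc2 was not run, because Tnnc2 had at most 2 fragments.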
